A study of Mus musculus with 6 samples.

Results

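The enzymes that carry acetoacetyl-CoA to squalene were followed in intestinal RNA of SHP-KO and wild-type (WT) mice, as 8 genes picked by name from the 23284 genes of the count files. They are Acat2, Hmgcs1, Mvk, Pmvk, Mvd, Idi1, Fdps and Fdft1. SHP-KO mice lack SHP (small heterodimer partner, gene Nr0b2), a nuclear receptor without a known ligand that represses transcription. The SHP-KO group and the WT group each had 3 RNA-seq libraries from jejunum and ileum of male mice aged 8 weeks, refed for 6 h after a night without food. The sources used here give neither the strain, the knockout allele and the share of each gut segment nor the number of mice behind a library. The p-values therefore rest on differences among 3 libraries a genotype, and these could be technical.

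The mevalonate pathway is the cytosolic route from acetyl-CoA to isoprenoids. Its product farnesyl diphosphate feeds squalene and cholesterol as well as ubiquinone, dolichol and the prenyl groups of proteins. In most mammalian cells the genes of this route are induced together by the transcription factor SREBP2 when membrane cholesterol is low. The small intestine both absorbs cholesterol and makes it.

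Total counts were 7956528 to 9289543 in the 3 SHP-KO libraries and 11265437 to 13511800 in the 3 WT libraries. Nr0b2 had 1, 0 and 0 counts in SHP-KO replicates 1 to 3, against 31, 14 and 23 counts in WT replicates 1 to 3. Of the 8 enzymes 7 passed the filter on low counts and were tested. All levels below are CPM, counts scaled to a common library total with TMM factors, unless TPM (the same share after division by summed exon length) is named, and intervals cover counting error only.

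Between the genotypes 3 of the 7 tested enzymes rose in SHP-KO, namely Acat2, Mvk and Idi1. None of the 7 fell at an adjusted p under 0.05 in edgeR's quasi-likelihood test, while 2 of them, Fdps and Fdft1, had an unadjusted p under 0.05 in that test. DESeq2's Wald test and limma-voom each called these 2 lower. The called share of 42.9% stands beside 70.6% of all 12106 tested genes called in this comparison, 35.2% higher and 35.4% lower. In 5 of the 7 the SHP-KO and WT libraries did not overlap, 3 with SHP-KO higher and 2 with SHP-KO lower, beside 72% of all tested genes without overlap (35.9% with SHP-KO higher, 36.1% with SHP-KO lower). The SHP-KO libraries also lay far apart from each other for 6 of the 7 enzymes, and for these 6 the 3 WT libraries lay close together.

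**Figure D1:**
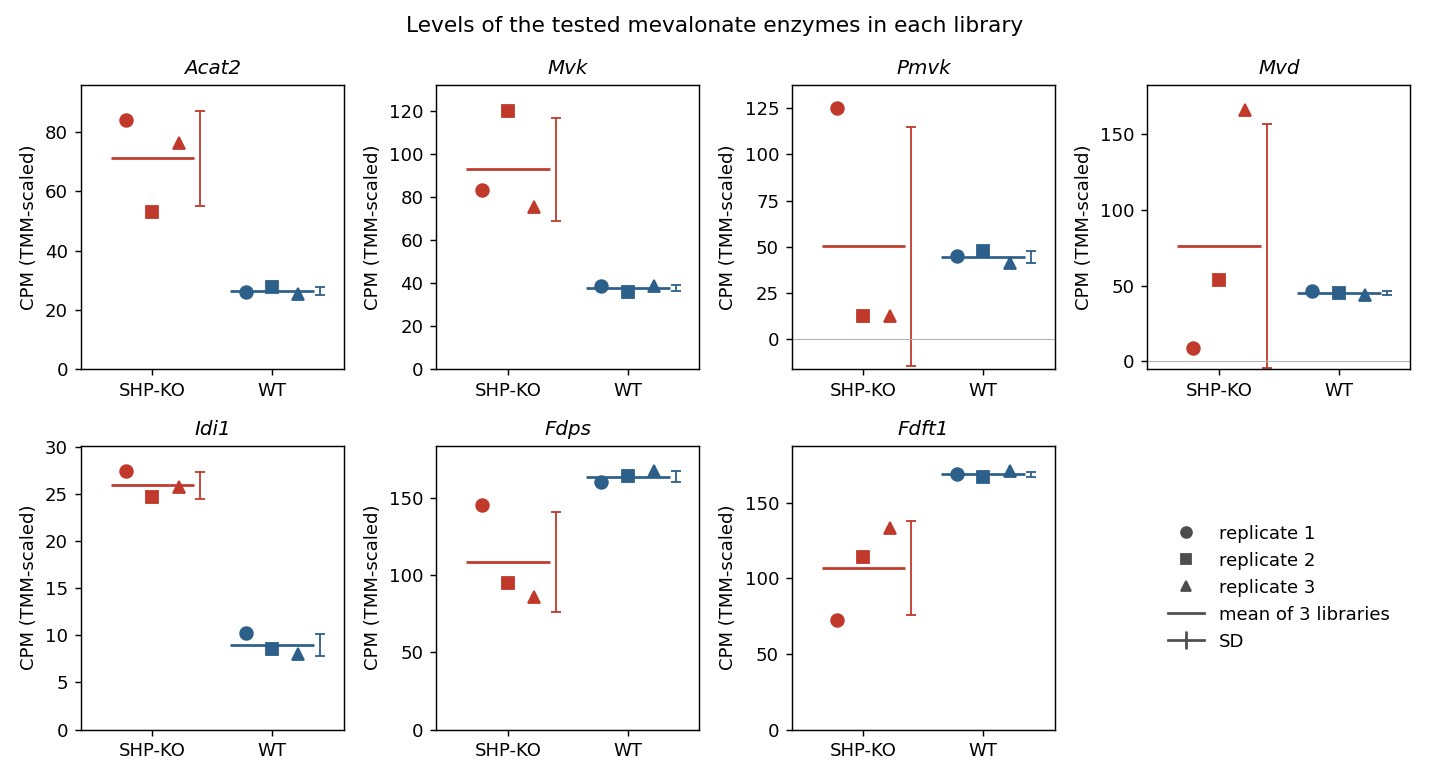
TMM-scaled CPM of the 7 tested enzymes in each library, SHP-KO in red and WT in blue, with symbols for the replicate numbers, a line at the mean and a bar of 1 SD. The WT points lie within 1.16 times of each other for every gene but Idi1 (1.28 times), whereas Pmvk spans 12.8 to 125.1 CPM and Mvd 9.16 to 166.0 CPM over the SHP-KO libraries.

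The route opens with Acat2, the cytosolic acetoacetyl-CoA thiolase (chromosome 17, 13135908 to 13153591, minus strand, 9 exons, mm9). Acat2 had 84.1, 53.2 and 76.3 CPM in SHP-KO replicates 1 to 3, against 25.9, 27.8 and 25.2 CPM in WT replicates 1 to 3. All 3 SHP-KO libraries were higher than all 3 WT libraries, and SHP-KO replicate 2 was the lowest of its group. The rise was 2.70-fold (log2 1.43, SE 0.21, adjusted p 0.0034, edgeR's quasi-likelihood test). Without any 1 library the log2 fold change lay between 1.30 and 1.61 and the call held.

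Hmgcs1, the cytosolic HMG-CoA synthase that makes the precursor of mevalonate, was listed at 0 counts in all 6 libraries. The annotation in the count files places it only on an unplaced contig of chromosome 13 in mm9, in 2 copies from 114710 to 132325 and from 308620 to 326235, each with 11 exons of the same lengths. Reads that align to several places were not counted under the settings in the file headers. Of 60 genes whose exons all lie on unplaced contigs, 9, Hmgcs1 among them, have exon lengths that pair up in this way. These 9 were at 0 in every library, beside 25.2% of all genes in the files. The share at 0 among the other genes on unplaced contigs was not taken. The part of this duplication in the 0 was not tested, and Hmgcs1 has no fold change.

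Mvk, mevalonate kinase, adds the first phosphate to mevalonate (chromosome 5, 114894315 to 114910599, plus strand, 11 exons, mm9). It had 83.1, 120.0 and 75.3 CPM in SHP-KO replicates 1 to 3, against 38.5, 35.9 and 38.5 CPM in WT replicates 1 to 3. Every SHP-KO library was above every WT library, with SHP-KO replicate 2 the highest. Mvk rose 2.47-fold (log2 1.30, SE 0.22, adjusted p 0.0058, edgeR's quasi-likelihood test), and the log2 fold change was 1.07 to 1.44 without any 1 library. Mmab, which encodes an enzyme of vitamin B12 metabolism, is read from the opposite strand, with 278 bases between its first exon and that of Mvk in mm9. Mmab had 4.07, 3.39 and 5.04 CPM in SHP-KO and 9.06, 7.72 and 7.63 CPM in WT, a fall (log2 -0.97, adjusted p 2.9e-07, edgeR) where its neighbour rose.

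Pmvk, phosphomevalonate kinase, adds the second phosphate (chromosome 3, 89263040 to 89272931, plus strand, mm9). SHP-KO replicates 1 to 3 had 125.1, 12.9 and 12.8 CPM, against 45.2, 47.8 and 41.3 CPM in WT replicates 1 to 3. Thus 1 SHP-KO library was far above WT and the other two were far below it, so that the WT values lay inside the SHP-KO range. The counts behind them were 983 (95% exact Poisson interval 923 to 1046), 118 (97.7 to 141) and 112 (92.2 to 135) in SHP-KO. Between the means of 50.3 ± 64.8 CPM in SHP-KO and 44.8 ± 3.28 CPM in WT (SD, n = 3 each) no difference was called (log2 0.12, SE 1.00, adjusted p 0.93, edgeR's quasi-likelihood test). Without SHP-KO replicate 1 Pmvk had a log2 fold change of -1.80 (adjusted p 5.0e-31, edgeR), so that this library sets the sign. Leaving it out also removes nearly all the SHP-KO spread, so this small p does not carry the variation seen over the 3 libraries.

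Mvd, mevalonate diphosphate decarboxylase, turns the diphosphate into isopentenyl diphosphate, the isoprene unit (chromosome 8, 124957496 to 124967322, minus strand, 11 exons, mm9). Its SHP-KO values were 9.16, 53.8 and 166.0 CPM in replicates 1 to 3, against 46.5, 45.5 and 44.0 CPM in WT replicates 1 to 3. SHP-KO replicate 1 was below WT, replicate 2 was slightly above it and replicate 3 was far above it. The counts were 72 (95% exact Poisson interval 56.3 to 90.7), 492 (449 to 537) and 1449 (1375 to 1526), so the 3 SHP-KO libraries differed beyond counting error. The highest was 18.1 times the lowest, against 1.06 times in WT. No difference between genotypes was called (log2 0.77, SE 0.92, adjusted p 0.50, edgeR's quasi-likelihood test), and without SHP-KO replicate 3 the log2 fold change turned to -0.47 (adjusted p 0.60, edgeR). Cyba, an oxidase subunit gene within 1000 bases of Mvd, had 35.1, 32.4 and 33.0 CPM in SHP-KO and 65.6, 66.2 and 66.7 CPM in WT, with no such scatter.

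Idi1, isopentenyl diphosphate isomerase, makes the reactive isomer that starts chain elongation (chromosome 13, 8884852 to 8891642, plus strand, 5 exons, mm9). It had 27.4, 24.6 and 25.7 CPM in SHP-KO replicates 1 to 3, against 10.2, 8.59 and 8.01 CPM in WT replicates 1 to 3. It was the only tested enzyme whose SHP-KO libraries were as close together as those of WT, with an SD of 5.36% of the mean in SHP-KO and 12.8% in WT. Idi1 rose 2.88-fold (log2 1.52, SE 0.10, adjusted p 2.5e-24, edgeR's quasi-likelihood test), and between 1.44 and 1.63 on the log2 scale without any 1 library.

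Acat2, Mvk and Idi1 were the members called in the same direction, and their promoters are shown for that reason. Sequences run from 250 bases before to 50 after the gene start, 5′ to 3′ on the gene's strand, from RefSeq on GRCm38.p6, a build other than the mm9 of the counts. Capitals mark CCAAT, the box bound by NF-Y, and GGGCGG, the GC box bound by SP1, on either strand (ATTGG and CCGCCC where reversed).
Acat2 promoter (chr17:12960676-12960975, minus strand): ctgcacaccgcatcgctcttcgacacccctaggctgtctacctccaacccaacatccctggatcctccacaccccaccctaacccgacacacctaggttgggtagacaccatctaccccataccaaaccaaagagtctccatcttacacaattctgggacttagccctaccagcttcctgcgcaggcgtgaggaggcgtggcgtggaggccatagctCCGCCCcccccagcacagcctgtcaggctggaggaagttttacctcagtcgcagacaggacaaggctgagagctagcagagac
Mvk promoter (chr5:114444019-114444318, plus strand): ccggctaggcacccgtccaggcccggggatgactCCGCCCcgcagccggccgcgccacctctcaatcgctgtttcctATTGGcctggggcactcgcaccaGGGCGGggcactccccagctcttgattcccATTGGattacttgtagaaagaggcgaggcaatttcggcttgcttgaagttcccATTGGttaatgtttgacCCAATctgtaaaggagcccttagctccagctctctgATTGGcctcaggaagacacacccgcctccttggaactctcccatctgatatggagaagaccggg
Idi1 promoter (chr13:8885356-8885655, plus strand): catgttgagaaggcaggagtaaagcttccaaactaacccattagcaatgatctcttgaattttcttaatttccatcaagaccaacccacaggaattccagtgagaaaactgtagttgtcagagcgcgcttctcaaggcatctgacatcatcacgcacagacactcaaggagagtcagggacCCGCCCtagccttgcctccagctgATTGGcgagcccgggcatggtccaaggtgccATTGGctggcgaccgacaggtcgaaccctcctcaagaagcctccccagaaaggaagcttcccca
The Mvk window held 5 CCAAT boxes and 2 GC boxes, the Idi1 window 2 CCAAT boxes and 1 GC box, and the Acat2 window 1 GC box and no CCAAT box. None of the 3 held TCACNCCAC, a core of the sterol response element, on either strand. Among 7 promoter windows of 6 of the enzymes, that of Hmgcs1 held it. Among all 32851 windows, 1.24% held TCACNCCAC, 37.4% CCAAT and 35.7% GGGCGG. A match is a string of letters and not a measured binding site.

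Farnesyl diphosphate synthase, Fdps, joins the isoprene units to the branch point of the pathway (chromosome 3, 88897510 to 88905889, minus strand, 11 exons, mm9). It had 145.7, 94.9 and 85.7 CPM in SHP-KO replicates 1 to 3, against 160.5, 164.2 and 167.3 CPM in WT replicates 1 to 3. All 3 SHP-KO libraries were below all 3 WT libraries, replicate 1 by the least. The log2 fold change of -0.60 (SE 0.21) did not pass (adjusted p 0.061, edgeR's quasi-likelihood test). Without SHP-KO replicate 1, the library nearest to WT, it was -0.86 and passed (adjusted p 2.3e-30, edgeR). Without any other single library it did not pass (adjusted p 0.13 to 0.17, edgeR). Leaving out replicate 1 also removes much of the SHP-KO spread, so that small p does not carry the variation seen over the 3 libraries. Rusc1, a gene within 1000 bases of Fdps, had 34.7, 37.0 and 35.9 CPM in SHP-KO and 27.3, 26.1 and 25.8 CPM in WT.

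Squalene synthase, Fdft1, commits farnesyl diphosphate to sterols (chromosome 14, 63763988 to 63796630, minus strand, 8 exons, mm9). SHP-KO replicates 1 to 3 had 72.5, 114.5 and 133.6 CPM, against 168.9, 167.2 and 170.7 CPM in WT replicates 1 to 3. Here SHP-KO replicate 1 was the lowest, whereas for Fdps the same library was the highest of the SHP-KO group. No SHP-KO library reached the WT range, yet the log2 fold change of -0.65 (SE 0.22) did not pass (adjusted p 0.054, edgeR's quasi-likelihood test). It passed without SHP-KO replicate 1 (log2 -0.45, adjusted p 1.5e-14, edgeR) and without SHP-KO replicate 3 (log2 -0.84, adjusted p 0.038, edgeR). Without any other single library it did not pass (adjusted p 0.11 to 0.13, edgeR). Leaving out replicate 1, the library furthest from the others of its group, also removes much of the SHP-KO spread that the test weighs. Fdft1 shares 773 bases of exon with Ctsb, a lysosomal protease gene on the other strand, and reads there were assigned to neither gene under the settings in the file headers. Ctsb itself had 465.3, 450.4 and 446.9 CPM in SHP-KO and 441.4, 459.5 and 440.7 CPM in WT.

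**Figure D2:**
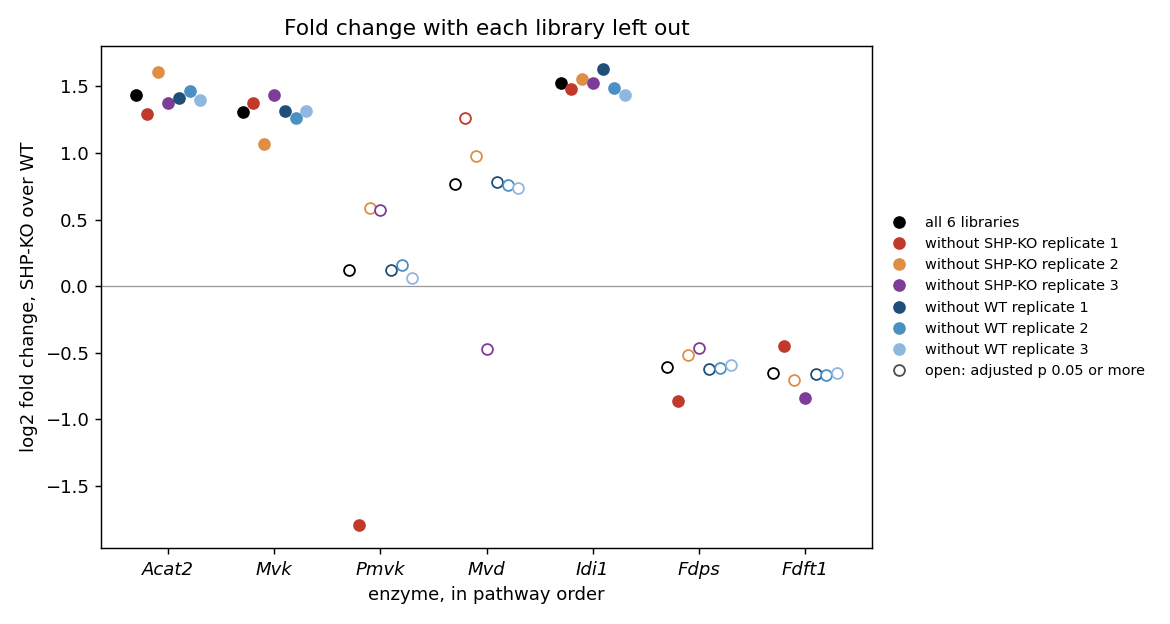
Log2 fold change of SHP-KO over WT for the 7 tested enzymes in pathway order, with all 6 libraries in black and with each library left out in colour; filled points have an adjusted p under 0.05. Acat2, Mvk and Idi1 stay above 1, Pmvk moves to -1.80 without SHP-KO replicate 1 and Mvd to -0.47 without SHP-KO replicate 3.

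No single order of the SHP-KO libraries held for all 7 tested enzymes. Acat2 and Idi1 had replicate 1 highest and replicate 2 lowest, Pmvk and Fdps had replicate 1 highest and replicate 3 lowest, Mvd and Fdft1 had replicate 3 highest and replicate 1 lowest, and Mvk had replicate 2 highest and replicate 3 lowest. The 95% Poisson intervals overlapped among all SHP-KO libraries for Idi1, so its order is not resolved. They also overlapped between replicates 2 and 3 for Pmvk and Fdps, and between replicates 1 and 3 for Acat2 and Mvk. Relative to the WT mean, SHP-KO replicate 1 stood at 2.80 times for Pmvk and 0.20 times for Mvd, the next enzyme, and SHP-KO replicate 3 at 0.29 times for Pmvk and 3.66 times for Mvd. The sum over the 8 enzymes moved far less, at 547.1, 473.9 and 575.5 CPM in SHP-KO replicates 1 to 3 against 495.8, 497.0 and 495.1 CPM in WT replicates 1 to 3. The SHP-KO sums were still further apart than the WT sums. Departures in opposite directions cancel in a sum, and Hmgcs1 adds 0 to each.

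**Figure D3:**
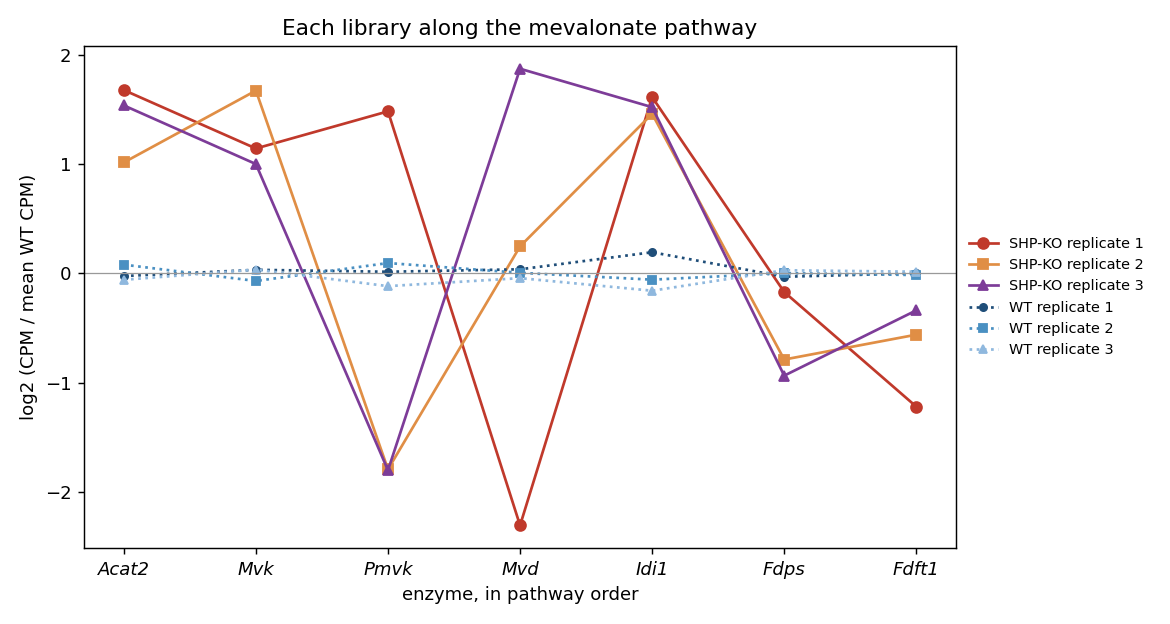
Log2 ratio of each library's CPM to the WT mean for the 7 tested enzymes in pathway order, solid lines for SHP-KO and dotted lines for WT. SHP-KO lines cross at Pmvk and Mvd, where replicate 1 stood at 2.80 and 0.20 times the WT mean and replicate 3 at 0.29 and 3.66 times.

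Set against all genes, the scatter of these enzymes was far from usual for the SHP-KO libraries. Over 7429 genes with a mean of at least 10 CPM the median ratio of the highest to the lowest SHP-KO library was 1.09, and 99% of genes were below 1.49. Acat2, Mvk, Fdps, Fdft1, Pmvk and Mvd had ratios of 1.58, 1.59, 1.70, 1.84, 9.75 and 18.1, and Mvd ranked 1 and Pmvk 3 among the 7429 genes. Over WT libraries the median ratio was 1.08 and the same 6 enzymes lay between 1.02 and 1.16.

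The biological coefficient of variation (BCV) is edgeR's estimate of a gene's spread beyond counting error. Each value is drawn toward that of genes at similar levels, so it is not the gene's own spread alone. The BCV had a median of 3.72%. It exceeded 15%, a limit chosen after the values were seen, in 16 of the 7429 genes, and the next gene stood at 12.7%. The part of this moderation in the gap was not tested. Of those 16 genes 6 were the enzymes named above, from 16.3% for Acat2 to 85.5% for Pmvk, while Idi1 had 3.75%. Another 5 stand in the lists of related genes, namely Tm7sf2, Hsd17b7 and Nsdhl, which act between squalene and cholesterol, Acss2, which makes acetyl-CoA from acetate, and Insig1, which retains the SREBP complex in the endoplasmic reticulum. The remaining 5 stand in no list and include Prkaa2, a catalytic subunit of the energy sensor AMPK, and the transporters Abca1, Abcc3 and Abcg2, all picked here for their scatter. In 14 of the 16 the spread was wider in SHP-KO, and for Abcc3 and Abcg2 it was wider in WT. Of the 16 genes above the BCV limit 11 came from lists of this pathway and its surroundings, in libraries that otherwise agreed closely. The lists held 7, 3, 3, 13, 12 and 7 genes of at least 10 CPM, and 0.215% of all 7429 genes were above the limit. These lists were chosen with earlier results of these data known, so the number is a description only. Ranked instead by the ratio of the highest to the lowest SHP-KO library, 7 of the top 14 genes stood in these lists. With a minimum mean of 30 CPM in place of 10 the number was 11 of 14. By that ratio, at 10 CPM, Fdft1, Fdps, Mvk and Acat2 ranked 14, 22, 39 and 43. No test was made against the share of these lists among all 7429 genes. Whether the reads carry this scatter was not tested, since the reads were not analysed here. That doubt applies to the values and fold changes of Acat2, Mvk, Pmvk, Mvd, Fdps and Fdft1 given above.

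**Figure D4:**
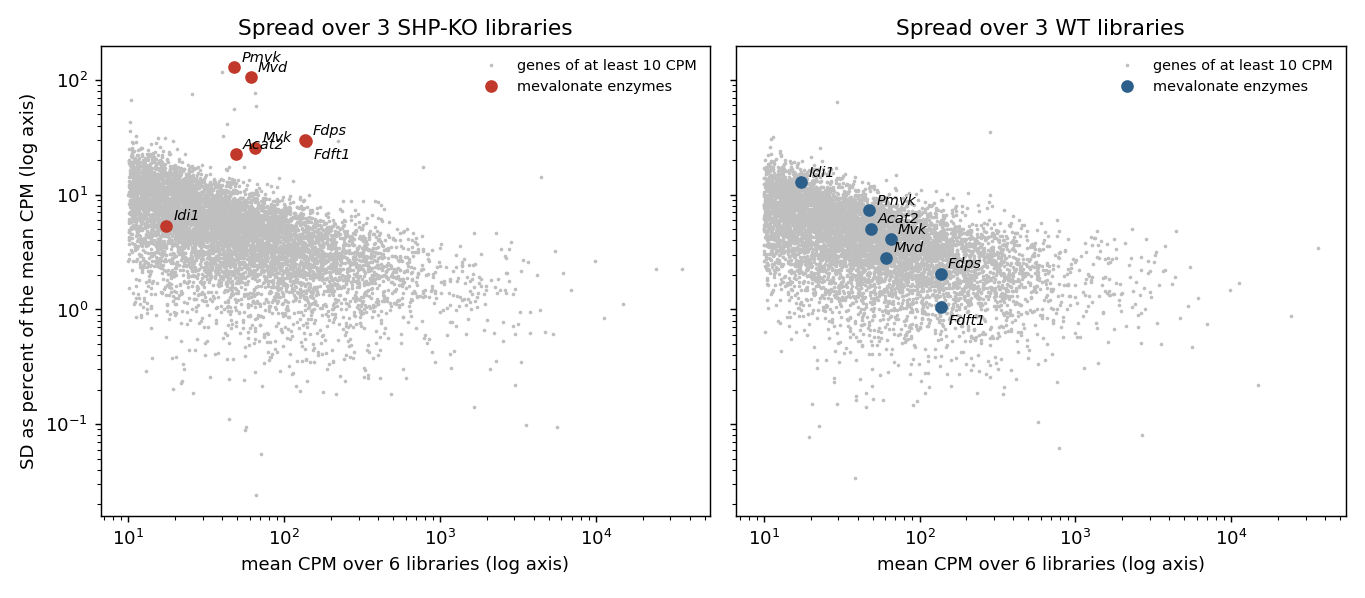
SD over 3 libraries as a percent of the mean CPM against mean CPM, both on log axes, for 7429 genes of at least 10 CPM (grey) and the 7 tested enzymes (coloured), SHP-KO on the left and WT on the right. Pmvk (129%), Mvd (106%), Fdps, Fdft1, Mvk and Acat2 lie above the cloud in SHP-KO and inside it in WT, and Idi1 lies inside it in both.

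The 5 list genes with such scatter did not follow one library either. Tm7sf2, a sterol reductase, had 136.7, 73.6 and 18.6 CPM in SHP-KO replicates 1 to 3 and 51.8, 57.1 and 49.1 CPM in WT. Hsd17b7 had 30.8, 130.9 and 92.5 CPM in SHP-KO and 46.7, 45.3 and 46.4 CPM in WT. Nsdhl was at 54.9, 14.3 and 49.6 CPM in SHP-KO and 54.4, 55.5 and 58.4 CPM in WT. The low library was thus replicate 3 for Tm7sf2, replicate 1 for Hsd17b7 and replicate 2 for Nsdhl. Acss2 had 91.2, 47.7 and 46.3 CPM in SHP-KO and 23.4, 26.1 and 24.2 CPM in WT. Insig1 had 222.1, 245.9 and 143.0 CPM in SHP-KO and 80.9, 80.7 and 83.3 CPM in WT. Both were above WT in every SHP-KO library. Prkaa2 had 16.3, 15.5 and 115.3 CPM in SHP-KO and 31.1, 30.8 and 30.3 CPM in WT, with replicate 3 alone above WT.

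Per unit of exon length, the steps of the pathway differed widely. In SHP-KO the mean levels were 127.2 ± 38.1 TPM for Fdps, 95.5 ± 24.7 for Mvk, 69.8 ± 73.8 for Mvd, 63.7 ± 18.5 for Fdft1, 58.6 ± 13.2 for Acat2, 57.1 ± 73.7 for Pmvk and 15.4 ± 0.84 for Idi1 (SD, n = 3). In WT they were 195.2 ± 4.004 TPM for Fdps, 102.7 ± 0.88 for Fdft1, 51.7 ± 3.89 for Pmvk, 42.3 ± 1.21 for Mvd, 39.5 ± 1.53 for Mvk, 22.03 ± 1.16 for Acat2 and 5.43 ± 0.69 for Idi1 (SD, n = 3). The WT order held in each WT library. The SHP-KO order did not, as the highest enzyme was Fdps in replicate 1 (170.7 TPM), Mvk in replicate 2 (123.7 TPM) and Mvd in replicate 3 (151.6 TPM). The ranges of neighbours overlapped throughout the order of SHP-KO means and nowhere in the order of WT means.

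Among relatives and suppliers of the pathway with at least 10 CPM, Acss2 was the only one with SHP-KO libraries more than 1.5-fold apart. Acat1, the mitochondrial thiolase, had 70.4, 73.0 and 69.0 CPM in SHP-KO and 65.8, 65.6 and 66.4 CPM in WT and did not pass (adjusted p 0.073, edgeR). Acat3, a close copy of Acat2 on chromosome 17, had at most 1 count in a library, and Idi2 had none. Among 3 genes that supply cytosolic acetyl-CoA, Acly, the citrate lyase, rose (log2 1.66, adjusted p 2.1e-48, edgeR), Acss2 rose (log2 1.32, adjusted p 0.026, edgeR) and the citrate carrier Slc25a1 did not pass (log2 -0.02). Without any 1 WT library the call of Acss2 was lost (adjusted p 0.072 to 0.084, edgeR).

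Genes listed for the uses of farnesyl and geranylgeranyl diphosphate other than sterols were mixed. The list also takes in some that act on proteins already prenylated and use neither substrate. Of 18 tested genes 6 rose, 8 fell and 4 did not pass, beside 35.2% of all tested genes higher and 35.4% lower. Their median log2 fold change was -0.17, beside -0.01 for all tested genes. Rabggta and Rabggtb, the subunits of the transferase that prenylates Rab proteins, rose (log2 1.28 and 0.93), and Fntb, a subunit of protein farnesyltransferase, fell (log2 -0.65). Nus1, a subunit of the dolichol-making prenyltransferase, also fell (log2 -0.33), though an exact test that assumed a CV of 0.2 did not call it (edgeR, adjusted p 0.27). Dhdds, the other subunit of that enzyme, rose (log2 0.51, adjusted p 1.2e-07, edgeR's quasi-likelihood test). None of the 13 genes of this list with at least 10 CPM had SHP-KO libraries more than 1.5-fold apart.

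Downstream, 12 genes from squalene to cholesterol gave 3 higher, 6 lower and 3 not passing, beside 35.2% of all tested genes higher and 35.4% lower. The median of the 12 log2 fold changes was -0.39. The 3 that did not pass were the scattered Tm7sf2, Hsd17b7 and Nsdhl. With single libraries left out, Hsd17b7 passed only without SHP-KO replicate 1 (log2 1.27, adjusted p 0.0086, edgeR). In the same libraries Sqle (679.8, 689.8 and 615.3 CPM), Sc4mol (72.3, 71.1 and 69.9 CPM) and Lss (7.25, 7.22 and 6.53 CPM) agreed closely over SHP-KO replicates 1 to 3. Among 8 genes that control SREBP2 processing or sterol sensing, 3 rose (Srebf2, Scap and Insig1), 4 fell and 1 did not pass, and the median of their log2 fold changes was -0.09. Without SHP-KO replicate 1 the number that fell was 2 in place of 4. Scap, the escort of SREBP, had 76.5, 67.0 and 72.3 CPM in SHP-KO and 27.7, 28.1 and 29.6 CPM in WT. Insig2, a second retention protein, fell (log2 -0.79), as did Stard4, a sterol carrier (log2 -1.08). Srebf2 spanned 429.8 to 507.6 CPM in SHP-KO and 162.3 to 170.0 CPM in WT.

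No marker listed here was at 0 in all libraries. Markers of gut segment and wall differed between the genotypes but hardly among the SHP-KO libraries. The summed level of 10 proximal small intestine markers was 28893 to 29390 CPM in SHP-KO and 7012 to 7075 CPM in WT, and 9 of the 10 rose. For 8 ileum markers the sum was 2094 to 2139 CPM in SHP-KO and 14120 to 14608 CPM in WT, with 5 lower and 3 higher. Fabp6 alone averaged 144.5 CPM in SHP-KO and 10792 CPM in WT, and the other 7 ileum markers summed to 1946 to 1993 CPM in SHP-KO and 3522 to 3531 CPM in WT. The sum of 10 smooth muscle markers was 1356 to 1392 CPM in SHP-KO and 370.7 to 374.1 CPM in WT, and all 10 rose. Enterocyte markers summed to 35117 to 35549 CPM in SHP-KO and 36637 to 36708 CPM in WT, with 3 of 8 higher and 4 lower. All 8 B cell markers fell, with sums of 1.49 to 2.16 CPM in SHP-KO and 76.3 to 85.7 CPM in WT. All 8 markers of dividing cells fell too, with sums of 44.5 to 52.4 CPM in SHP-KO and 152.2 to 160.6 CPM in WT, and 5 of 5 tested adipocyte markers rose. Summed over all 8 listed, adipocyte markers had 160.0 to 172.0 CPM in SHP-KO and 117.2 to 121.1 CPM in WT, and without Cidec, the most abundant, 28.0 to 30.7 CPM in SHP-KO and 2.63 to 4.16 CPM in WT. Macrophage markers summed to 52.9 to 58.4 CPM in SHP-KO and 109.5 to 112.8 CPM in WT, with 2 of 7 tested higher and 3 lower, and without Lyz2, the most abundant, to 39.2 to 46.3 CPM in SHP-KO and 38.1 to 40.4 CPM in WT. The part of these markers in the genotype differences of the enzymes was not tested, and in bulk tissue fewer cells of a type and less RNA per cell cannot be told apart.

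The authors' deposited table gives the same directions with more calls among these enzymes. In the authors' deposited table Mvd is at log2 0.74 with an adjusted p of 0.0094, Fdps at -0.61 with 0.033 and Fdft1 at -0.68 with 0.016, while Pmvk is at 0.14 with 0.69. Acat2, Mvk and Idi1 stand in the authors' deposited table at log2 1.42, 1.28 and 1.51, and 34.6% of its genes have an adjusted p under 0.05. An exact test with an assumed CV of 0.2, in place of a spread estimated from the libraries, gave these log2 fold changes and adjusted p-values for all 7 enzymes (edgeR). The observed SHP-KO spread (SD) of Mvd and Pmvk was 106% and 129% of their means.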

How the data were processed

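RNA of jejunum and ileum from 3 SHP-KO and 3 WT libraries was read on an Illumina HiSeq2000, per the labels' protocols. The deposited values are whole-number counts per gene, made with featureCounts 1.5.2, unstranded and summed over exons, per the file headers. Reads with several alignments or several genes were not counted under those settings. The submitters' processing notes name Trimmomatic 0.38, STAR 2.6.0c, edgeR without a version, and mm9. The comparison table deposited by the authors gives, per gene, a log2 fold change, a log2 mean CPM, a p-value and its adjusted form.

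Genes passing filterByExpr (minimum count of 10; 12106 genes) were normalised by TMM. The test was edgeR's quasi-likelihood test (edgeR 4.0.16 under R 4.3.3, robust estimation), with Benjamini-Hochberg adjustment over all tested genes and a threshold of 0.05. The pipeline was tested on simulated data in which every gene had the same small spread. How it behaves for genes as scattered as most of these enzymes was therefore not tested. CPM are given as mean ± SD. TPM were computed from counts and the summed exon length of the files. Libraries of a genotype differed by more than counting noise, and none was a copy of another. Alternatives used DESeq2 1.42.0, limma 3.58.1 and other settings. Figures were drawn with matplotlib 3.10.9.

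All 8 enzymes are named, with related genes by smallest p within each list, neighbouring genes, the 8 genes most like the enzymes over libraries, and genes named for their scatter after it was seen. Dhdds is named as the partner of Nus1. The enzymes and lists were chosen with earlier results of these data known. One further enzyme of the pathway, and some genes that the rules take, are not reported here. Promoter sequences are from RefSeq (GRCm38.p6).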

Additional observations from a re-analysis of the deposited data

How the results depend on the processing

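The 3 members called higher were called under all 15 alternatives, with 4 called without robust estimation and with an assumed CV of 0.2, where Mvd was added. The number called lower, 0 in the comparison as reported, was 1 with library totals as the only scaling, and 2 without robust estimation, with DESeq2's Wald test, with limma-voom and with the assumed CV of 0.2. Leaving out each library gave 3 to 3 members higher, 0 to 3 lower (3 without SHP-KO replicate 1, 1 without SHP-KO replicate 3) and 8260 to 8407 genes called in all, against 8543. With the assumed CV of 0.2, which replaces the estimated spread, 4483 genes were called. Pmvk had no value under DESeq2's Wald test. Over the 7 tested members 86 of 104 alternative values kept direction and call, 14 kept direction and gained a call, and 4 changed sign. Among those that changed sign, Pmvk without SHP-KO replicate 1 also gained a call. Pmvk was at log2 -0.21 with the replicate block and -0.78 with limma-voom, and over the libraries left out Pmvk ranged from -1.80 to 0.59 and Mvd from -0.47 to 1.27. Of the other named genes Slc25a1 was at 0.0072 with a minimum count of 50, and Ctsb at -0.015 with library totals, -0.038 without a count filter and -0.0044 with DESeq2's Wald test. Over single libraries left out Hsd17b7 ranged from 0.43 to 1.27, Tm7sf2 ranged from -0.18 to 0.98, Prkaa2 from -0.95 to 1.12 and Abcc3 from -0.53 to 0.40. The call of Abca1 was lost without any 1 WT library (adjusted p 0.053 to 0.065, edgeR) and that of Abcg2 without any 1 SHP-KO library (0.068 to 0.072). Counts over related genes moved too. With the assumed CV of 0.2, 3 genes listed for the uses of farnesyl and geranylgeranyl diphosphate were higher and 3 lower. In the same setting 2 genes of SREBP2 control were lower. Without robust estimation 5 genes from squalene to cholesterol were higher. The cause of these changes was not tested.

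Deviations from the genotype means correlated at 0.038, 0.048 and -0.014 between SHP-KO and WT libraries of the same replicate number. Between libraries of unlike numbers they correlated at -0.054 to 0.011. All these values are small, and they cannot decide whether the numbers share a weak batch, as no libraries known to be paired were at hand. With the replicate block 8573 genes and 3 members were called, and the call of Acss2 was lost (adjusted p 0.074, edgeR). At 3 libraries a group, Pmvk and Mvd had standard errors of 1.00 and 0.92 on the log2 scale, and a log2 fold change of 1.27 for Mvd without SHP-KO replicate 1 was not called (adjusted p 0.15, edgeR).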

Other observations

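By the rule for likeness, deviations of log2 CPM from the genotype mean were averaged over the 7 tested members in the 6 libraries. This mean profile had an SD of 0.086, since members deviated in opposite directions: Mvd was at -2.23 in SHP-KO replicate 1 and at 1.92 in replicate 3, and Pmvk at -1.09 in replicate 3. The 8 genes with the profile most like it were Gmpr2, Pdhx, Tmem125, Mterfd1, Trub2, Crkl, Rgs3 and Ube2g1, with Pearson r of 0.982 to 0.991 over 6 libraries, as the highest of 5843 candidates, which is a description only. Of these 8, 7 were also named with a minimum mean of 5 CPM in place of 10.

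In WT the wide spread of Abcc3 and Abcg2 came from replicate 2. Abcc3, an exporter of conjugated bile acids, had 27.5, 25.9 and 27.7 CPM in SHP-KO replicates 1 to 3 and 18.3, 56.5 and 22.5 CPM in WT replicates 1 to 3. Abcg2, an apical efflux pump, had 162.9, 167.3 and 160.8 CPM in SHP-KO and 320.7, 565.3 and 316.6 CPM in WT. No such departure was seen in the mevalonate enzymes of WT replicate 2, which lay within 1.16 times of the other WT libraries for the 6 enzymes that scattered in SHP-KO.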
